A study of Mus musculus with 14 samples.

Results

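The cytosolic translation initiation and elongation factors were followed in mouse hematopoietic stem cell-enriched bone marrow cells exposed to interleukin-1β (IL-1β), an inflammatory cytokine. They were taken by name: 70 symbols of the count table start with Eif and a digit or with Eef, and 6 pseudogene symbols and 7 genes of eIF2 kinases or eIF4E-binding proteins were left out. Of the 57 that remained, 54 reached 10 counts in at least 3 libraries, out of 24833 genes in the table. By the start of their symbols these are 45 Eif (initiation) and 9 Eef (elongation) genes, and all 54 passed the filter on low counts and were tested. The other 3 were Eef1a2 (the elongation factor 1α copy of muscle and neurons), with at most 6 counts in a library, Eif2s3y (the Y-linked eIF2γ), with at most 3, and Eif3j2 (a copy of Eif3j1), with at most 8. The minimum fell in a wide gap, because the lowest gene inside it, Eif5a2, had 377 counts in its third-highest library.

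All 14 libraries came from C57BL/6 mice whose marrow was sorted for lineage-negative, Sca-1+, Kit+ cells that were Flk2-, CD48- and CD150+. Each library held the cells of several pooled mice. Daily intraperitoneal injections held IL-1β (0.5 µg a mouse) or, as the control, phosphate-buffered saline, written PBS below. They were given for 1 day (3 libraries of each treatment) or for 20 days (4 of each), and the labels name no altered gene in any group. No source used here ties a library to single animals, and p-values measure the spread between pools.

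Initiation factors bring the initiator tRNA, the small ribosomal subunit and the mRNA together. The start codon is found by scanning with eIF1 and eIF1A, the initiator tRNA is delivered by eIF2, eIF2 is recharged by its exchange factor eIF2B, the large scaffold eIF3 sits on the small subunit, and eIF4F (the cap-binding eIF4E, the scaffold eIF4G and the helicase eIF4A) loads the mRNA. Elongation then runs on eEF1A, which delivers aminoacyl-tRNA, on the eEF1B subunits that recharge it, on eEF2, which moves the ribosome on, and on eIF5A, which relieves stalled ribosomes. Hematopoietic stem cells are known for a low rate of protein synthesis, and inflammatory signals reach this machinery through mTORC1 and through the eIF2 kinases.

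Total counts ran from 21654896 to 29441947 per library, so that 3 counts in a library equalled 0.102 to 0.139 CPM, which are counts scaled to an equal library total. By their titles the libraries form 4 naming sets, balanced for treatment. At 1 day there are "10k", with 1 library of each treatment, and "E060216", with 2 of each. At 20 days replicates 1 and 2 carry "E061316", and replicates 3 and 4 have no tag and are called the untagged set. What the tags stand for is not stated. Some libraries stood apart. Replicate 4 of the 20-day PBS group had lower levels of long genes than any other library (Spearman's rho of level, relative to the mean of the libraries, with exon length -0.37 across 14645 genes), followed by both 10k libraries (-0.24 and -0.28), while the rest lay between -0.09 and 0.29. Replicate 3 of the 20-day IL-1β group had a summed level of 10 neutrophil genes of 1871 CPM, against 8.67 or less in each of the other 13. In bulk RNA, fewer cells that express a gene and less of its RNA per cell cannot be told apart.

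The factors covered a wide span of levels, given here as CPM per kb of exon over the 7 PBS libraries. Eef1a1, the main elongation factor 1α, was the most abundant, at 1613 ± 137 (SD, n = 7). Eif5a followed at 668 ± 104, Eef2 at 424 ± 54.1, Eif1 at 383 ± 83.7 and Eif4a1 at 297 ± 23.6. The SD ranges of Eef2 and Eif1 overlap, as do those of Eif1 and Eif4a1, so the order within these pairs lies inside their spread. At the other end stood Eif2s3x (eIF2γ) at 5.26 ± 0.743, Eif3j1 at 4.95 ± 0.392 and Eif5a2, the second eIF5A gene, at 2.16 ± 1.01.

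**Figure D1:**
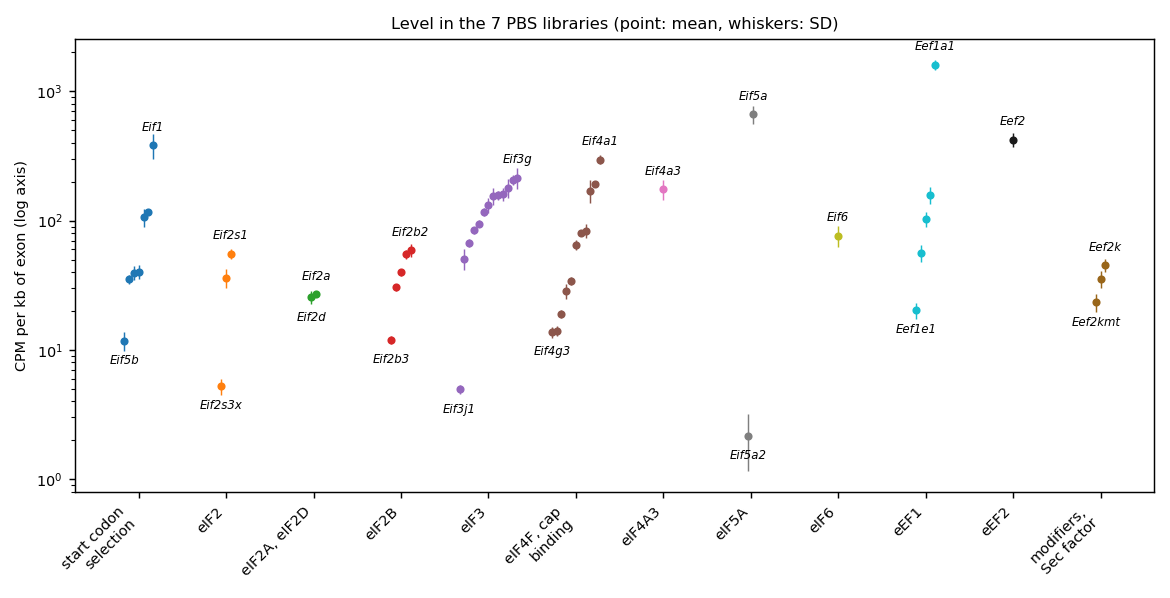
Mean level and SD, in CPM per kb of exon on a log axis, of each of the 54 genes in the 7 PBS libraries, by factor complex, with the lowest and highest gene of each complex named. Eef1a1 is highest at 1613 and Eif5a2 lowest at 2.16 CPM per kb.

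Subunits that sit in 1 complex did not have 1 level. Within eIF3, Eif3g reached 215 ± 38.6 CPM per kb and Eif3b 207 ± 17.7, whereas Eif3f stood at 50.7 ± 9.26. In eIF2 the α subunit gene Eif2s1 stood at 55.4 ± 4.94, the β gene Eif2s2 at 36.2 ± 5.83 and the γ gene Eif2s3x far lower. The lowest of these levels have a counting limit: 34.6% of the 100-base windows of Eif2s3x transcripts and 47.6% of those of Eif3j1 also occur in transcripts of another gene (Gm2223 and Eif3j2), where a read could be lost or assigned elsewhere. The same share was 60.8% for Eif4a1 (mainly the pseudogene Eif4a-ps4), 49.4% for Eef1g (Gm4366) and 26.7% for Eef1a1, so their levels are uncertain too. Together the 54 genes took between 1.51% and 1.82% of all counts in a library.

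At 1 day none of the 54 genes passed the test in either direction (edgeR's quasi-likelihood test, Benjamini-Hochberg adjusted over 15466 genes, threshold 0.05). Of all genes tested, 2.52% were called higher and 1.83% lower (4.35% in either direction). At an unadjusted p under 0.05 the members numbered 5, namely Eif1ad, Eif2s1, Eif3c and Eif4a3 on the higher side and Eif4a2 on the lower, which is 9.26% against 18.8% of all genes (9.45% higher and 9.30% lower). DESeq2 called Eif3c higher and Eif4a2 lower, beside 4.79% and 4.25% of all genes. The median log2 fold change of the members was 0.12, with 39 of 54 above 0, beside -0.01 over all genes tested. The lean was in 1 of the naming sets: the members' median was 0.17 in E060216, with 45 of 54 above 0, and -0.06 in 10k, with 18 of 54 above 0. Marker sums of other cells also differed between the 1-day groups without overlap: erythroid genes at 26.3 to 39.0 CPM with IL-1β and 12.1 to 15.4 CPM with PBS, and macrophage genes at 23.9 to 30.8 and 35.9 to 42.4 CPM. The erythroid sum came mostly from Hbb-bt (mean 31.6 CPM with IL-1β and 10.4 CPM with PBS), while the mean of Hba-a1 was 0.13 against 0.46 CPM. The part of these marker shifts in the 1-day values, the stress response genes below included, was not tested. The 1-day interval of a member was narrower than that of most genes, with a median half-width of 0.25 against 0.37 on the log2 scale.

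Eif4a2, the second of the eIF4A helicase genes, lay nearest to the threshold at 1 day. It measured 248, 238 and 231 CPM in the PBS libraries and 160, 188 and 203 CPM in the IL-1β libraries. All 3 IL-1β values lay below all 3 PBS values. The log2 fold change was -0.38 ± 0.10 (SE), with a 95% interval from -0.61 to -0.16 and an adjusted p of 0.053 by edgeR. It was below 0 in both naming sets (-0.48 in E060216 and -0.19 in 10k). With a library left out the edgeR adjusted p ran from 0.029 to 0.30, and with the trend over gene length removed, described below, edgeR called it lower (3.00% of genes lower and 3.99% higher). Its partner Eif4a1 went the other way in value, at 0.19 (interval -0.04 to 0.42, edgeR adjusted p = 0.38).

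Among the other genes of the cap-binding complex, Eif4e stood at 0.21 (interval -0.06 to 0.48) and Eif4g1 at 0.12 (-0.10 to 0.35) at 1 day. Eif3c, a core subunit of eIF3, measured 263, 275 and 312 CPM with PBS and 370, 336 and 315 CPM with IL-1β. These groups did not overlap, but the closest pair, 312 and 315, were the 2 libraries of the 10k set. Its log2 fold change was 0.27 ± 0.09, with an edgeR adjusted p of 0.12. Counting all members, 4 had IL-1β libraries wholly above the PBS libraries (Eif2a, Eif2b4, Eif3a and Eif3c) and 1 wholly below (Eif4a2), which is 7.41% and 1.85% where 8.75% and 8.91% of all genes tested did so.

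By complex, the 1-day medians were 0.13 for the 13 eIF3 genes, 0.17 for the 3 eIF2 genes, 0.15 for the 5 eIF2B genes and 0.07 for the 11 genes of eIF4F and cap binding. Eif2s1, whose product is the subunit that stress kinases phosphorylate, stood at 0.26 (interval 0.01 to 0.52, edgeR adjusted p = 0.25). Eif2b1, the regulatory α subunit of eIF2B, stood at 0.19 (-0.01 to 0.39), and Eif2a, which encodes an initiator tRNA carrier that is distinct from the eIF2 complex, at 0.21 (-0.03 to 0.44). Among the elongation genes, Eef2 was at 0.00 (-0.19 to 0.20), Eef1a1 at -0.07 (-0.30 to 0.16), Eef1g, an eEF1B subunit, at 0.27 (-0.02 to 0.56) and Eef2k, the kinase that switches eEF2 off, at -0.20 (-0.44 to 0.03).

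**Figure D2:**
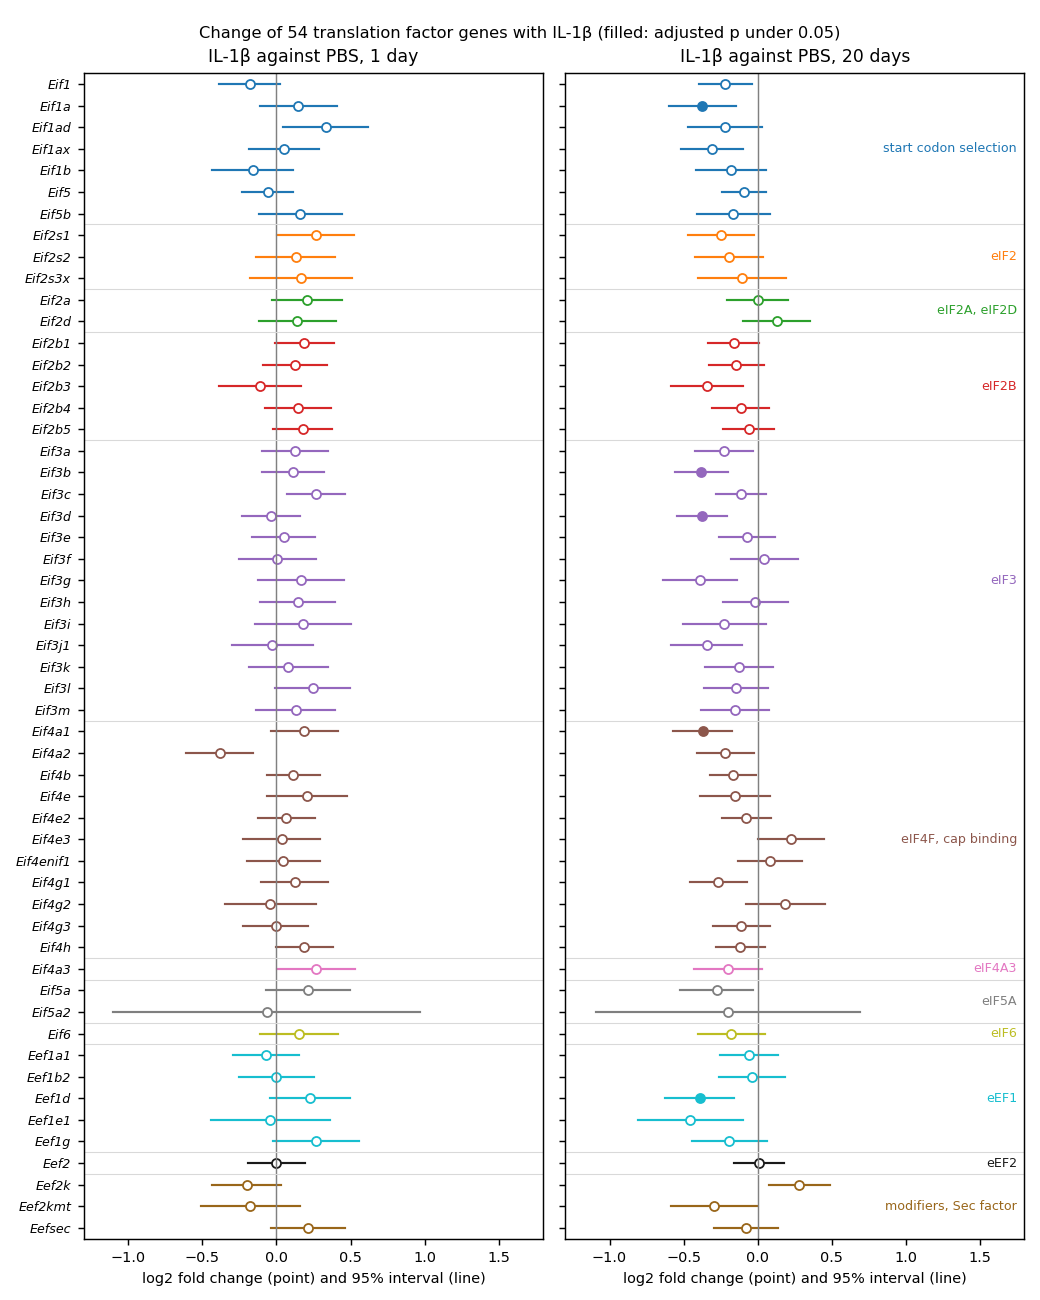
Log2 fold change of IL-1β over PBS with its 95% interval for each of the 54 genes at 1 day (left) and 20 days (right), colored by factor complex, with a filled point for an adjusted p under 0.05. No point is filled at 1 day; the 5 filled points at 20 days lie between -0.39 and -0.37.

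At 20 days 5 of the 54 genes fell and none rose (edgeR, adjusted p under 0.05). They were Eif3b and Eif3d of the eIF3 scaffold, the eIF4A helicase gene Eif4a1, Eif1a of start codon scanning, and Eef1d, the eEF1B δ subunit. The 5 are 9.26% of the members, where 3.52% of all genes tested were called lower and 3.94% higher (7.46% in either direction). All 5 fell by a similar amount, to between 0.762 and 0.773 of the PBS level. At an unadjusted p under 0.05 there were 18 members lower and 2 higher, which is 33.3% and 3.70% of the members against 10.1% and 10.3% of all genes (20.4% in either direction). DESeq2 called 10 members lower and Eef2k higher, beside 5.74% and 5.96% of all genes. The median of the 54 was -0.16, with 47 below 0, beside -0.00 over all genes tested.

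Eif3b, an RNA-recognition subunit at the core of eIF3 (ENSMUSG00000056076, chr5:140419328-140443360, plus strand of GRCm38), measured 595, 629, 564 and 549 CPM with PBS and 481, 524, 388 and 411 CPM with IL-1β at 20 days. Every IL-1β library lay below every PBS library. Its log2 fold change was -0.38 ± 0.08, with an edgeR adjusted p of 0.014.

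Eif3d, the eIF3 subunit that can itself bind the mRNA cap (ENSMUSG00000016554, chr15:77958998-77970813, minus strand), measured 172, 169, 178 and 188 CPM with PBS and 140, 147, 125 and 134 CPM with IL-1β. The groups did not overlap, and each was narrow. The log2 fold change of Eif3d was -0.37 ± 0.08 (edgeR adjusted p = 0.011). At 1 day the same gene stood at -0.04, with an interval from -0.23 to 0.16.

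Eif4a1, the main eIF4A helicase (ENSMUSG00000059796, chr11:69666936-69672423, minus strand), measured 516, 475, 565 and 527 CPM with PBS and 440, 445, 377 and 354 CPM with IL-1β. Again no IL-1β library reached the lowest PBS library. On the log2 scale its change was -0.37 ± 0.09 (edgeR adjusted p = 0.025).

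Eif1a, an eIF1A gene (ENSMUSG00000057561, on chromosome 18), measured 171, 178, 178 and 129 CPM with PBS and 140, 159, 116 and 97.4 CPM with IL-1β. The groups overlapped because PBS replicate 4, at 129 CPM, was lower than 2 of the IL-1β libraries. Its change was -0.38 ± 0.11 on the log2 scale (edgeR adjusted p = 0.044). Its X-linked partner Eif1ax, which shares no 100-base window with it, stood at -0.31 (interval -0.52 to -0.10, edgeR adjusted p = 0.070).

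Eef1d (ENSMUSG00000055762, chr15:75894205-75909556, minus strand) measured 177, 179, 198 and 238 CPM with PBS and 144, 178, 149 and 131 CPM with IL-1β. Here too 1 pair of libraries crossed, since IL-1β replicate 2, at 178 CPM, lay between the 2 lowest PBS libraries. The log2 fold change of Eef1d was -0.39 ± 0.11 (edgeR adjusted p = 0.043).

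**Figure D3:**
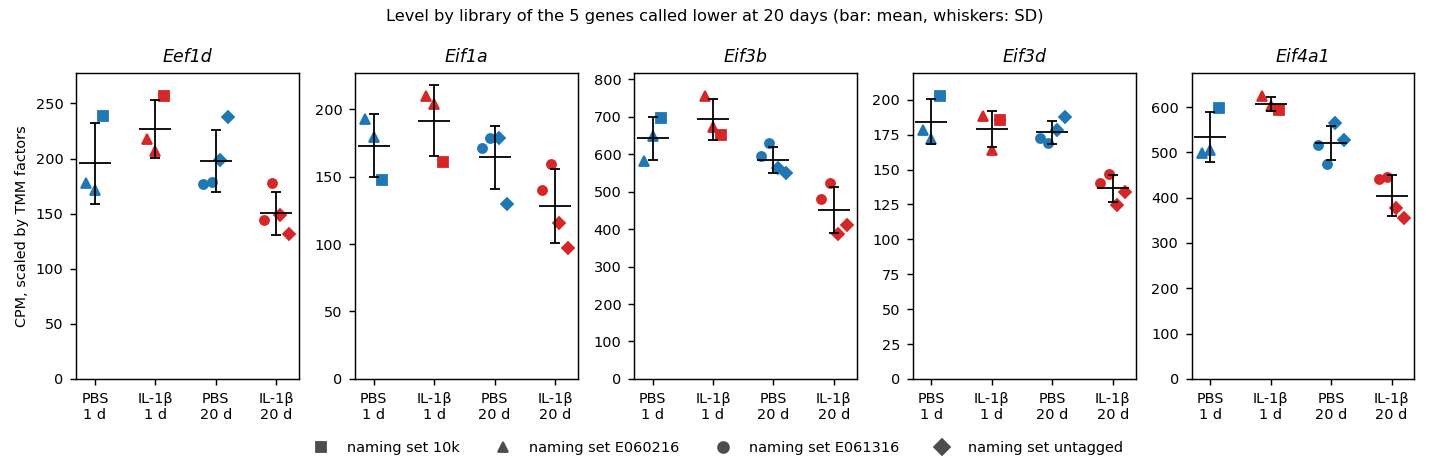
Level in CPM of the 5 genes called lower at 20 days, for each of the 14 libraries, with the group mean and SD (bars) and the naming set (marker shape). Eif3b, Eif3d and Eif4a1 have 20-day IL-1β libraries wholly below the 20-day PBS libraries; Eif1a and Eef1d overlap.

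Eif3d kept its call when each of the 14 libraries was left out in turn. It was also the one member that edgeR called without a term for the naming set, where Eif3b, Eif4a1, Eif1a and Eef1d lost their calls and the genes called in all went from 1154 to 525. Without IL-1β replicate 3 of 20 days, the library with the neutrophil genes, Eif3d was the only member called, and 763 genes were called in all. Eif3b then stood at -0.34 with an edgeR adjusted p of 0.052 and Eif4a1 at -0.34 (0.085). Eif1a stood at -0.39 (0.087) and Eef1d at -0.37 (0.12), and the members' median was -0.14. Eif4a1 also lost its call when IL-1β replicate 4 of 20 days was left out (648 genes called in all), or PBS replicate 3 (893). Eif1a and Eef1d each lost theirs in 8 of the 14 omissions, with adjusted p of up to 0.12 and 0.13. For both these were PBS replicate 2 and IL-1β replicates 2 and 3 of 1 day, and PBS replicate 3 and IL-1β replicates 1, 3 and 4 of 20 days. The eighth was PBS replicate 2 of 20 days for Eif1a and PBS replicate 4 for Eef1d. PBS replicate 4 of 20 days was the library with the lowest levels of long genes. Without it, Eif3b, Eif3d, Eif4a1 and Eif1a were called and Eef1d was not (-0.29, edgeR adjusted p 0.067), with 1075 genes called in all.

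Markers of other cells differed between the 20-day groups too. The summed level of the sort's exclusion genes Flt3 and Cd48 was 84.2 to 148 CPM with IL-1β and 43.9 to 65.6 CPM with PBS. Of the genes that the sort kept for, Slamf1 (CD150) rose too, by 0.81 on the log2 scale (edgeR adjusted p = 0.00093). Ly6a (Sca-1) stood at 0.28 (0.20) and Kit at 0.12 (0.77). Erythroid genes (8 of 8 in the table) summed to 98.5 to 134 against 13.1 to 33.5 CPM, mostly from Hbb-bt, while the mean of Hba-a1 was 0.17 against 1.26 CPM. T and NK cell genes (5 of 8 in the table) summed to 90.2 to 108 against 42.9 to 58.0 CPM, mostly from Nkg7. Klrb1c measured 9.03 to 16.1 against 6.53 to 11.9 CPM. The T cell genes Cd3d, Cd3g and Trac were at 0 counts in 7, 13 and 5 of 14 libraries, with at most 4, 2 and 13 counts. B cell genes summed to 52.4 to 62.8 against 42.0 to 54.4 CPM, mostly from Cd79b. Macrophage genes summed to 19.0 to 23.9 against 21.1 to 51.7 CPM, of which Cd163 had a mean of 16.3 against 15.0 CPM. Of the 9 macrophage genes edgeR called 3 lower, beside 3.52% of all genes tested. These were C1qa (-1.97, adjusted p = 0.047), C1qb (-1.63, 0.045) and Cd5l (-3.26, 0.028), each with a PBS mean of 3.80 CPM or less. Of the 8 neutrophil genes tested edgeR called 1 higher, Lcn2 (7.22, adjusted p = 0.011), beside 3.94% of all genes tested. Lcn2 measured 1.76 to 94.1 CPM with IL-1β and 0 to 0.30 CPM with PBS. All 8 were above 0 in the untagged set, and 6 of the 8 were below 0 in E061316. The part of these marker shifts in the changes of the translation factors was not tested.

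Of the 13 eIF3 genes 12 were below 0 at 20 days, with a median of -0.15. Beside Eif3b and Eif3d, Eif3g stood at -0.39 (edgeR adjusted p = 0.059) and Eif3j1 at -0.34 (0.080), and the largest subunit, Eif3a, at -0.23 (0.16). Eif3f, Eif3h and Eif3e were near 0, at 0.04 (interval -0.18 to 0.27), -0.02 (-0.24 to 0.20) and -0.07 (-0.26 to 0.12). The intervals of Eif3d and Eif3f did not overlap; the difference between the 2 subunits was not tested.

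In eIF4F, Eif4a1 was the one gene among 11 that edgeR called. The scaffold Eif4g1 measured 421, 429, 373 and 342 CPM with PBS and 282, 374, 323 and 319 CPM with IL-1β, and stood at -0.26 (edgeR adjusted p = 0.099). DESeq2 called it lower (adjusted p = 0.040), as did edgeR with the length trend removed (0.020). The cap-binding Eif4e stood at -0.15 (interval -0.39 to 0.08) and Eif4a2 at -0.22 (-0.41 to -0.02, adjusted p = 0.18). Eif4e3, an atypical cap-binding protein gene, went the other way in value, with IL-1β libraries at 41.3 to 42.6 CPM and PBS libraries at 31.3 to 41.1 CPM (0.23, edgeR adjusted p = 0.24). Eif4g2, a scaffold without the eIF4E-binding part, depended on 1 library: PBS replicate 4 measured 813 CPM and the other 7 libraries of 20 days 1313 to 1653 CPM.

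In the initiator tRNA branch edgeR called no gene at 20 days, and DESeq2 called Eif2b3 lower (DESeq2 adjusted p = 0.033). All 3 eIF2 genes and all 5 eIF2B genes lay below 0, with medians of -0.19 and -0.14. Eif2s1 stood at -0.25 (interval -0.47 to -0.02) and Eif2b3, the eIF2Bγ gene, at -0.34 (edgeR adjusted p = 0.087). The non-canonical initiator tRNA factors did not share this direction, with Eif2a at -0.00 (-0.21 to 0.20) and Eif2d at 0.13 (-0.10 to 0.35). Eif4a3, the helicase of the exon junction complex, stood at -0.20 (-0.43 to 0.03), and Eif6, which keeps the large ribosomal subunit from joining too early, at -0.18 (-0.41 to 0.05).

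Among the elongation genes, the most abundant, Eef1a1, was at -0.06 (interval -0.25 to 0.14) and Eef2 at 0.01 (-0.16 to 0.18), so that changes larger than these bounds lie outside the 95% intervals. Eef2 measured 1209, 1303, 1293 and 1567 CPM with PBS and 1339, 1311, 1336 and 1411 CPM with IL-1β. The kinase gene Eef2k measured 308, 339, 319 and 250 CPM with PBS and 356, 344, 390 and 387 CPM with IL-1β. All its IL-1β libraries lay above all its PBS libraries, and the log2 fold change was 0.28 ± 0.10 (edgeR adjusted p = 0.094). Its lowest value was in PBS replicate 4, the library with the lowest levels of long genes, and its exons span 6947 bases. Within the naming sets its change was 0.46 in the untagged set and 0.115 in E061316. Eif5a stood at -0.28 (interval -0.52 to -0.03, adjusted p = 0.18), and Eif5a2 had too few counts for a narrow interval (-1.09 to 0.69). In all, 4 members had IL-1β libraries wholly below PBS (Eif3b, Eif3d, Eif3j1 and Eif4a1; 7.41%, against 4.99% of all genes tested) and 2 wholly above (Eef2k and Eif4e3; 3.70%, against 5.39%).

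The 2 naming sets of 20 days gave different pictures. In the untagged set 48 of 54 members were below 0, with a median of -0.31, and in E061316 28 of 54 were, with a median of -0.00 (all genes tested: 0.03 and -0.00). For the eIF3 genes the medians were -0.40 (13 of 13 below 0) and 0.07 (6 of 13 below 0). For the 5 genes with Eef1 symbols they were -0.49 and 0.11. The 5 called genes were below 0 in both sets: Eif3b at -0.48 and -0.28, Eif3d at -0.50 and -0.25, Eif4a1 at -0.58 and -0.16, Eif1a at -0.52 and -0.22, and Eef1d at -0.64 and -0.15. Each set has 2 libraries of each treatment, and the difference between the sets was not tested.

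**Figure D4:**
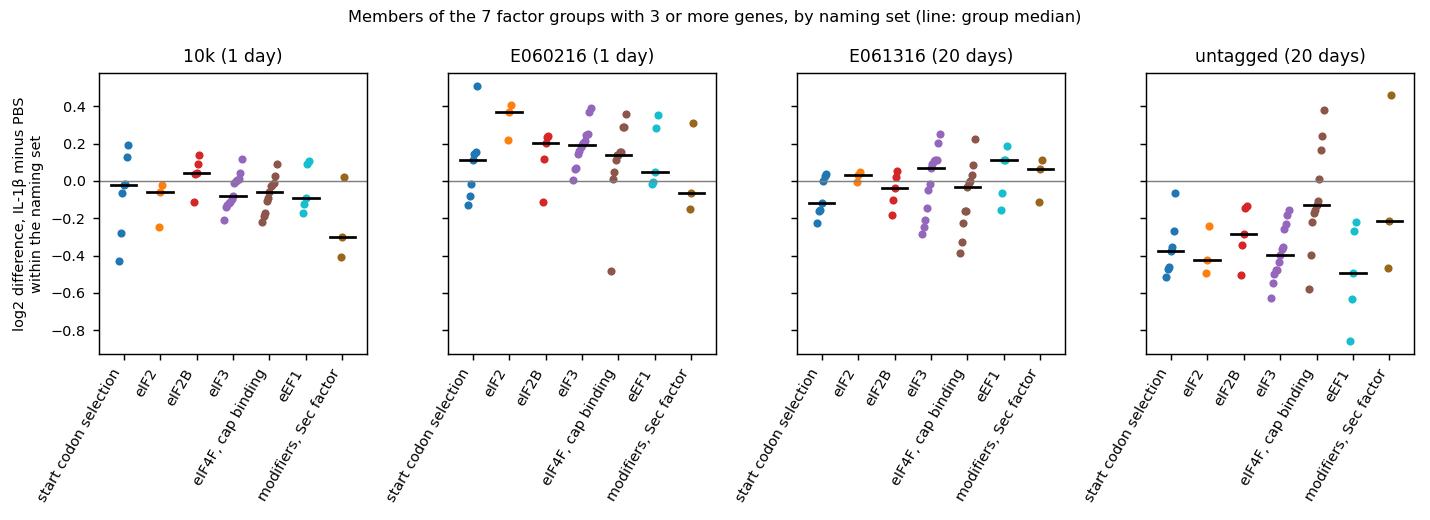
Log2 difference of IL-1β minus PBS within each of the 4 naming sets, for each gene (points) of the 7 factor groups with 3 or more genes, with the group median (line). The 13 eIF3 genes all lie above 0 in E060216 and all below 0 in the untagged set, and spread on both sides of 0 in 10k and E061316.

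Gene length moved with this contrast between the sets. Across the 54 members the within-set change went upward with exon length in the untagged set (Spearman's rho 0.34) and downward in E061316 (-0.33), and across 14645 genes the values were 0.25 and -0.18. These are descriptions across genes of the same libraries, with depth and composition in common. In the untagged set the median was -0.35 for the 27 shorter members (1 above 0) and -0.21 for the 27 longer ones (5 above 0). In E061316 the medians were 0.03 (17 above 0) and -0.03 (9 above 0). With each library's trend over length removed, an alternative chosen after seeing the data, edgeR called 8 members lower (5.20% of the genes with a length) and Eef2k higher (4.95%), and the 8 included all 5 named above. The part of length in the difference between the sets was not tested further.

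**Figure D5:**
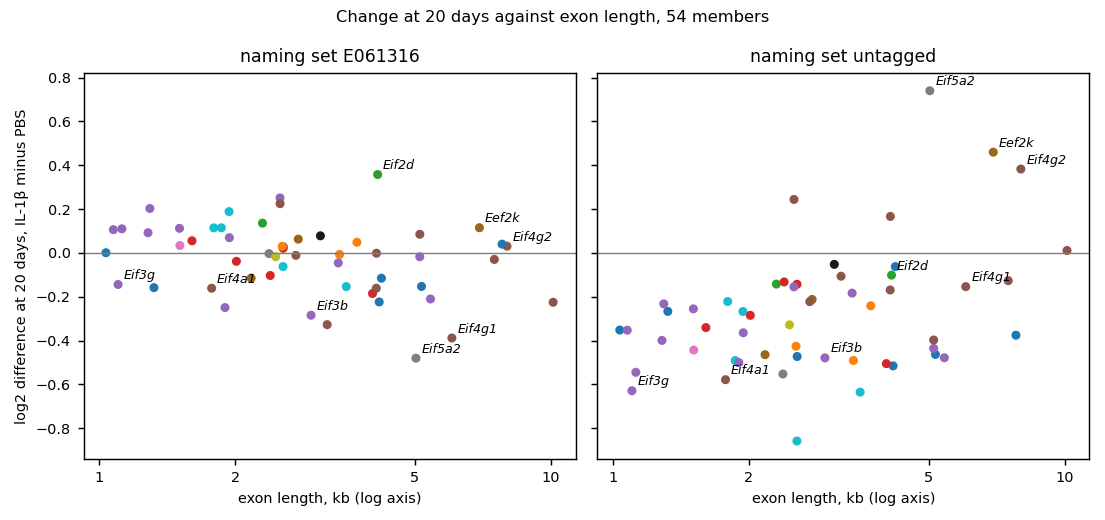
Log2 difference of IL-1β minus PBS at 20 days against exon length in kb (log axis) for the 54 genes, in the naming sets E061316 (left) and untagged (right), colored by factor complex. The points run downward with length on the left (rho -0.33) and upward on the right (rho 0.34), and 48 of 54 lie below 0 on the right.

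The 2 durations were compared by the difference of their IL-1β effects in the same edgeR fit. None of the 54 differences passed the threshold, where 0.989% of all genes tested had a lower effect at 20 days and 1.15% a higher one (2.14% in either direction). At an unadjusted p under 0.05 there were 20 members lower and 1 higher, 37.0% and 1.85% against 9.54% and 8.84% of all genes, and DESeq2 called 10 lower and 1 higher (3.94% and 3.70% of all genes). With the length trend removed edgeR called 4 lower and Eef2k higher (2.85% and 2.14% of genes with a length). The members' median difference was -0.28, beside 0.02 over all genes tested. Eif4a1 came nearest, at -0.56 ± 0.14 (interval -0.86 to -0.26, edgeR adjusted p = 0.055), followed by Eif3b at -0.49 (0.061) and Eef1d at -0.62 (0.067). Eef2k was the member with the higher effect, at 0.48 (0.095). Because the durations belong to different naming sets, duration and set cannot be told apart in this comparison.

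Other genes of the pathway came from lists of known roles. Their counts stand beside the shares of all genes that edgeR called. These shares were 2.52% higher and 1.83% lower at 1 day, and 3.94% higher and 3.52% lower at 20 days. For the difference of the 2 effects they were 1.15% higher and 0.989% lower, and there duration and naming set cannot be told apart. The 6 tested eIF2 kinases and eIF4E-binding proteins had no call at either duration, and Eif4ebp1, which holds eIF4E away from eIF4G, stood at -0.31 at 20 days (edgeR adjusted p = 0.10). Of 14 genes of mTORC1 and cap-binding control, none was called at 1 day and 2 at 20 days: Pdcd4, an inhibitor of eIF4A, rose by 0.58 ± 0.10 (edgeR adjusted p = 0.0028), from 89.5 ± 8.33 to 135 ± 25.6 CPM (SD, n = 4), and Larp1, a binder of terminal oligopyrimidine mRNAs, fell by 0.38 on the log2 scale (0.0059). In a list of 10 other genes around initiation, the only call was Ltv1, which acts in small-subunit maturation. It fell by 0.51 at 20 days (edgeR adjusted p = 0.0050). None of 6 termination and recycling genes, 9 genes of hypusine and diphthamide synthesis (the modifications of eIF5A and eEF2) and 11 mitochondrial translation factors was called at either duration. For Gspt1, the release factor eRF3a, the difference of the 2 effects was called, lower at 20 days (-0.59, edgeR adjusted p = 0.042). Of 84 tested cytosolic ribosomal protein genes, none was called at 1 day and 1 fell at 20 days, the Rpl22 paralogue Rpl22l1 (by 0.46 on the log2 scale, edgeR adjusted p = 0.024). In value, 83 of the 84 were below 0 at 20 days, with a median of -0.20; the medians were -0.45 in the untagged set and 0.09 in E061316, a difference that was not tested.

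Genes of the integrated stress response, which runs through eIF2 phosphorylation, went lower where called. At 1 day 2 of 10 fell. Trib3, a feedback inhibitor of ATF4, fell by 1.37 on the log2 scale (edgeR adjusted p = 0.0034). Ppp1r15a, which recruits the eIF2α phosphatase, fell by 0.90 (0.0056). Its groups overlapped, at 198 to 666 CPM with IL-1β and 374 to 1130 CPM with PBS. Within the naming sets its change was -0.96 in E060216 and -0.76 in 10k. At 20 days 3 of 10 fell: Atf4, the main transcription factor of the response, by 0.33 (0.015), Trib3 by 0.77 (0.025) and Asns, asparagine synthetase, by 0.44 (0.033). The difference of the 2 effects was called for Asns (-0.77) and for Psat1, of serine synthesis (-0.78), both lower at 20 days with an edgeR adjusted p of 0.042. Of 20 cytosolic aminoacyl-tRNA synthetase genes, which charge the tRNAs that eEF1A carries, Cars rose by 0.51 at 1 day (0.026) and Wars, Eprs and Mars fell at 20 days by 0.36 (0.011), 0.30 (0.021) and 0.41 (0.027). The medians over the 20 synthetases were 0.16 at 1 day and -0.23 at 20 days. Within the naming sets of 1 day they were 0.28 in E060216 (20 of 20 above 0) and -0.03 in 10k (9 of 20 above 0). Within those of 20 days they were -0.27 in the untagged set and -0.12 in E061316. These differences between sets were not tested. The difference of the 2 effects passed the edgeR test for 3 of the 20 synthetases (Aars, Cars and Mars), each lower at 20 days. Of all genes tested 0.989% were called lower in this difference, in which duration and naming set cannot be told apart.

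Promoters were searched for the E-box CACGTG, a motif that Myc proteins and other bHLH factors bind, because Myc and Mycn changed in these cells. Mycn fell by 0.50 at 1 day (edgeR adjusted p = 0.016) and by 1.22 at 20 days (5.5e-06), and Myc by 0.42 at 20 days (0.0041), with Myc at -0.32 at 1 day (0.058). The windows, from RefSeq on GRCm38.p6, run from 250 bases before to 50 after each start, and the motif is its own reverse complement, so 1 search covers both strands. Windows were found for 44 of the 54 genes, and 12 of them (27.3%) held the motif, beside 8.1% of all genes with a window, 11.6% of genes tested and 13.6% of the top quartile of tested genes by level. The following stretches of 30 bases, 5′ to 3′ on the strand of the gene with the motif in capitals, show it in genes of the eIF4F complex and, for comparison, in Eef2 and its kinase gene Eef2k.
Eif4a1: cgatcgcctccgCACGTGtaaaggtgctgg
Eif4e: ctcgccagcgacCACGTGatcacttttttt
Eif4e: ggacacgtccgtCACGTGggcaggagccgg
Eif4g1: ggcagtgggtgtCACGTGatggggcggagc
Eef2: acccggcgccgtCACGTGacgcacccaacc
Eef2k: cccggggacggcCACGTGagcccgggcgtg

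They lie at chr11:69672595-69672624 (minus strand, motif 189 bases before the start) for Eif4a1, at chr3:138527028-138527057 and chr3:138527192-138527221 (plus strand, 228 and 64 bases before) for Eif4e, at chr16:20672661-20672690 (plus, 54 before) for Eif4g1, at chr10:81176576-81176605 (plus, 43 before) for Eef2 and at chr7:120842788-120842817 (plus, 31 before) for Eef2k. Another Eif4e window, chr3:138525941-138526240, holds no match, nor do the other windows of Eef2k. A further Eif4g1 match, at base +16 from the start, is not printed. Of the same factor group, Eif4a2, Eif4b, Eif4e2, Eif4enif1 and Eif4g3 have windows without a match. Matches not printed also lie in windows of Eif1b, Eif3a, Eif3f, Eif3k, Eif4h, Eif5a and Eif5a2. Genes with and without the motif had medians close to each other. The 12 genes with it had a median of -0.17 at 20 days with 1 of 12 called lower, and the 32 with a window and no motif -0.16 with 2 of 32. The genes printed above ran from -0.37 for Eif4a1 to 0.28 for Eef2k. A match is a run of letters only, and no binding was measured here.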

How the data were processed

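The table the authors deposited holds raw counts by gene symbol. Per the submitters' processing notes, Cuffdiff, Cufflinks 2.0.2, DESeq2 1.12.3, HTSeq 0.6.1, STAR 2.4.2a and Trimmomatic 0.32 were used with GRCm38.p4, in roles that are not stated. The counting's strand setting is not given in the sources used here. Per the labels' protocols, the chemistry amplifies cDNA and carries no molecular identifiers, so floors cover counting error only. Replicates differed by more than sampling noise (chi-square per degree of freedom at least 11.2).

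The test was that of edgeR 4.0.16 (R 4.3.3; TMM factors, filterByExpr with minimum count 10, robust quasi-likelihood F-test, two-sided). All 14 libraries entered 1 fit with a naming-set term and an IL-1β effect per duration (8 residual degrees of freedom, biological coefficient of variation 0.198), adjusted by Benjamini-Hochberg over 15466 genes; the fit was checked on simulated data. The SE is the absolute log2 fold change over the square root of F. Within-set differences are of log2 CPM with a prior count of 2. CPM are TMM-scaled, except sums over lists. Exon lengths and shared windows (exact 100-base matches, the read length) come from GENCODE M21 on GRCm38; 93.0% of the genes matched. Alternatives used DESeq2 1.42.0, other scaling, other filters, other terms, and leaving out each library.

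The members, lists and tests were chosen with earlier results of these data known. The rule names every called member, the smallest p of each factor group at each duration, and 14 genes set by name; of the lists, the called genes with the smallest p, up to 3 a duration. Eif3f, Eif3g, Eif3h, Eif3e, Eif3j1, Eif1ax, Eif4g2, Eif4e3, Eif2b4, Eif2s2, Eif1, Aars, Gspt1, Psat1 and Rpl22l1 were named after their values were seen. Eif1b, Eif3k, Eif4b, Eif4e2, Eif4enif1, Eif4g3 and Eif4h were named for their promoter windows.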

Additional observations from a re-analysis of the deposited data

Results flagged for a closer look

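In 20-day groups of 4 libraries, 5 of 50 groups (25 named genes, PBS and IL-1β) had 1 library far from the others by Dixon's criterion, which chance alone meets in about 1 of 20 groups. In PBS replicate 4, Eef1g measured 362.8 CPM (the others 274.6 to 286.1) and Eif6 measured 224.9 CPM (168.1 to 175.4), while Eif1a measured 129.3 CPM (170.9 to 178.4). This is the library with the lowest levels of long genes. In IL-1β replicate 2, Eif2b3 measured 45.86 CPM (the others 32.49 to 34.51) and Eif5a2 measured 11.65 CPM (7.725 to 8.295). No cause was tested.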

How the results depend on the processing

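No called value changed sign in any alternative. At 20 days 5 members were called lower; the count was 1 without a naming-set term (Eif3d), 2 with only the libraries of that duration (Eif3b and Eif3d), 10 with DESeq2 (which also called 1 higher), 8 with the length trend removed (chosen after seeing the data; 1 higher), and between 1 (without IL-1β replicate 3) and 9 (without IL-1β replicate 2) when a library was left out. Over all genes the calls in either direction moved too, from 1154 to 525 without a naming-set term, 750 with that duration alone, 1809 with DESeq2, 672 with a replicate block, and 763 and 1140 without IL-1β replicates 3 and 2. At 1 day, where none was called, DESeq2 called 1 higher and 1 lower; upper-quartile factors, a minimum count of 50, the libraries of that duration alone and length trend removal each called 1 lower, and leaving out a library gave 0 to 1 in either direction. For the difference between durations, where none was called, RLE factors gave 1 lower, a minimum count of 50 gave 3, DESeq2 10 and length trend removal 4, with 1 higher in each of the last pair; leaving out a library gave 0 to 8 lower. Over all genes the 1-day calls went from 672 to 1398 with DESeq2, 743 with upper-quartile factors and 818 with a minimum count of 50. They were 1200 with that duration alone, 1024 with the length trend removed and 228 to 1244 with a library left out. For the difference they went from 331 to 370 with RLE factors, 540 with a minimum count of 50 and 1182 with DESeq2. They were 23 without a naming-set term and 23 with a replicate block. With the length trend removed they were 730, and with a library left out 34 to 604. The causes were not tested.

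The members' median at 1 day was 0.12 and -0.062 in the 10k set alone; at 20 days it was -0.16, with -0.0023 in E061316 alone, -0.31 in the untagged set alone and -0.22 to -0.12 with a library left out. With a replicate block, 2 members were called lower at 20 days (Eif1a and Eif3d), and no other count of members moved; same-numbered libraries correlated at -0.03 to 0.27 in their deviations from group means, not above 0.1 in every pair, so the numbers were not taken as pairs; 9 of the 14 libraries correlated best with their own number. Counting depth was lowest for Eif5a2, at 1.705 CPM in its lowest library.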
